A study of Mus musculus with 2 samples.

Results

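Sterol synthesis genes and the SREBP genes that control them were compared in mouse embryonic stem cells, as transcripts of a set of 8 genes picked by name. These are Hmgcs1, Idi1, Fdps, Fdft1 and Sqle, which encode enzymes of the pathway to cholesterol, the factor genes Srebf1 and Srebf2, and the feedback gene Insig1. All 8 were found by gene symbol among 19087 named genes, on 16 of 32042 named probes. The working name of the set mentions uptake, but none of the 8 encodes a receptor, so the set is described here as synthesis and control genes.

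Each of 2 arrays carried RNA of a Tcl1 stable transformant and of a Tcl1 gene disruptant in opposite dyes. The disruptants carry a PGK-promoter puromycin cassette in each copy of Tcl1, which encodes a coactivator of the kinase Akt. The transformants had the same interrupted locus, since the labels give the vector CAG-Tcl1ireszeopA, which expresses Tcl1 from the CAG promoter, as put into disruptant clone 4. Array 1 set transformant clone 1 in Cy5 against disruptant clone 4 in Cy3. Array 2 set transformant clone 4 in Cy3 against disruptant clone 6 in Cy5, which had also been stably transfected with CAG-EGFP. All cells grew with serum and LIF on gelatin without feeder cells. By these labels array 1 set a transformant against its parent disruptant clone, and array 2 set one against a different disruptant clone. Every culture is a single clone, and dye, clone, this parentage and the EGFP vector all differ between the arrays, so they cannot be told apart. The p-values rest on the spread between the 2 arrays, in which clone, dye and vector are mixed, and not on a spread between clones alone.

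Cells make cholesterol from acetyl-CoA through mevalonate, isoprenoid diphosphates and squalene. When sterols in the endoplasmic reticulum run low, Scap carries the SREBP factors to the Golgi, where proteases release their active part, which then turns on the genes of the pathway. When sterols are plentiful, Insig proteins hold Scap and SREBP back. Akt signalling is known to promote SREBP activity in several cell types, and the sample titles name the search for Tcl1 target genes as the aim.

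All values below are log2 ratios of transformant over disruptant, so a negative one is lower in the transformant. The log10 scale of the deposited values is inferred, and so is their direction, Cy5 over Cy3, which is likely from the convention of the scanner program. The opposite reading would turn every sign. Ratios carry no level, so whether a probe lay above background, and whether the cell type's defining markers are present, was not analysed here. In bulk RNA, fewer cells of a type and less RNA per cell cannot be told apart. Over the named genes the medians were 0.0053 on array 1 and 0 on array 2, with SDs of 0.425 and 0.498, and the arrays ran weakly against each other (Pearson r = −0.14 across genes, which are not independent replicates). Tcl1 had −0.37 and 0.17 on its 1 probe, so it was not higher on both arrays in the RNA labelled transformant, and on array 1 it was lower there, which goes against that label if the vector carries the part of Tcl1 that the probe reads. The labels do not settle whether it does. Transformant and disruptant are used below as labels, and every direction rests on them.

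The sequences below are 250 bases before the RefSeq start of 4 of the genes (build GRCm38.p6). Hmgcs1 and Idi1 are shown because they had the probes furthest below 0 on array 2. Insig1 and Srebf2 are shown because their means over probes were near 0 there, which is an unlike measure. The single probes of Srebf2 ran from −0.38 to 0.25 on array 2. The windows are chr13:119690101-119690350 for Hmgcs1, chr13:8885356-8885605 for Idi1, chr5:28071162-28071411 for Insig1 and chr15:82147019-82147268 for Srebf2, all on the plus strand. Capitals mark TCACNCCA, a core of the sterol regulatory element that SREBP binds, and CCAAT, the letters bound by NF-Y, each searched on both strands, so that CCAAT on the minus strand reads as ATTGG.
Hmgcs1: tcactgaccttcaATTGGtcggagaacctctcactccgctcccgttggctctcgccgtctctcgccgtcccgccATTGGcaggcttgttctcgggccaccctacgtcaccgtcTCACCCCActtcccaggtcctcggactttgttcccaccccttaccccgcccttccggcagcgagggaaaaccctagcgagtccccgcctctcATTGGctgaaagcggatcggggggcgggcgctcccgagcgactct
Idi1: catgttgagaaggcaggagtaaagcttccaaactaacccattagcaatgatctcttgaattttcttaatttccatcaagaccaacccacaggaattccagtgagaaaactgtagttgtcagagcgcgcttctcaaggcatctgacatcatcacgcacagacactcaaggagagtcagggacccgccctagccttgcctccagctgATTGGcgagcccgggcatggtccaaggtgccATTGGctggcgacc
Insig1: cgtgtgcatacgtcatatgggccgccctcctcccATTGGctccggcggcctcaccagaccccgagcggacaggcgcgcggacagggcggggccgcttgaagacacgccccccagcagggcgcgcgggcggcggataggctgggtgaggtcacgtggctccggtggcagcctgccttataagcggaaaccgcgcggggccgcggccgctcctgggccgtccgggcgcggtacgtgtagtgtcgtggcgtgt
Srebf2: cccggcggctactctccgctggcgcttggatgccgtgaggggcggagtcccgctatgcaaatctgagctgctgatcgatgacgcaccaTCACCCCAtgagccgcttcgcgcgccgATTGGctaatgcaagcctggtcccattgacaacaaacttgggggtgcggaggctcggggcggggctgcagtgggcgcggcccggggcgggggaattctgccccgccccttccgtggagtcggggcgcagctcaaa
Of the 8 genes, 5 had a window in the RefSeq table, with 7 windows in all because Srebf1 has 3. TCACNCCA was found in 2 of these 7 windows, 137 to 130 bases before the start of Hmgcs1 and 162 to 155 bases before that of Srebf2, beside 3.67% of the 32817 promoter windows of the same length. CCAAT was found in 6 of the 7, beside 33.8% of all windows. Hmgcs1 has 3 such matches, Idi1 has 2, and Insig1 and Srebf2 have 1 each. The E-box CACGTG was found in the Insig1 window alone among the 7, at 101 to 96 bases before the start, beside 6.02% of all windows, and the GC box GGGCGG in 6 of 7, beside 32.7%. No marked match overlaps another. These are matches of letters. Of the windows shown, those of Hmgcs1 and Srebf2 hold the sterol element core and those of Idi1 and Insig1 do not. The part of these matches in the array values was not tested.

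None of the 8 genes differed between transformants and disruptants by the test, and the 2 arrays gave every one of them opposite signs. Hmgcs1, Sqle and Idi1 were above 0 on array 1 and 1.84-fold to 2.75-fold lower in the transformant on array 2. Srebf1, Srebf2, Fdps, Fdft1 and Insig1 were below 0 on array 1 and above 0 on array 2, by no more than 0.33. In limma 0 of 8 were called, as were 0 of all 30110 entries (0% of entries called). Without adjustment, limma p-values under 0.05 were likewise found for 0 of the 8, beside 3.15% of entries. Their unadjusted p-values ran from 0.368 to 0.735, and all adjusted p-values were 1. With 2 arrays limma had 1 residual and 0.861 prior degrees of freedom, so a lack of calls cannot show that the genes did not differ. Turning the signs of 2 arrays can give no two-sided p under 0.5.

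**Figure D1:**
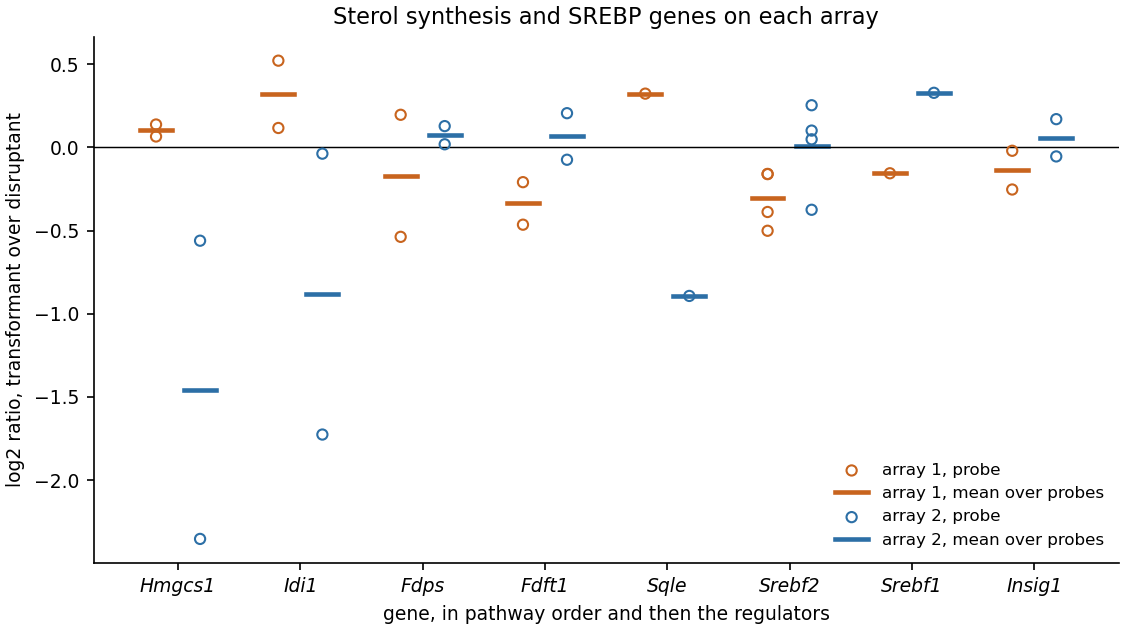
Log2 ratio of transformant over disruptant (vertical axis) for the 8 genes (horizontal axis), with array 1 in orange and array 2 in blue. Circles are single probes and bars the mean over the probes of a gene, and 2 circles of Srebf2 on array 1 coincide at −0.16. The bars of Hmgcs1, Idi1 and Sqle lie above 0 on array 1 and between −0.88 and −1.46 on array 2, while those of the other 5 stay between −0.34 and 0.33 on both.

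Hmgcs1 encodes the cytosolic HMG-CoA synthase, an early enzyme of the mevalonate pathway. It had 0.10 on array 1 and −1.46 on array 2, which averages to −0.68 ± 1.10 (SD, n = 2), with limma's 95% interval from −3.34 to 1.99. The array 2 value is 2.75-fold lower in the transformant and lies at percentile 1.89 of the named genes on that array, whereas the array 1 value lies at percentile 62.8. It was the only one of the 8 at least 2-fold lower on array 2, where 5.45% of named genes were, and 0 of the 8 were 2-fold higher there, beside 0.566%. On array 1, 0 of the 8 were 2-fold lower, beside 2.09% of named genes, and 0 were 2-fold higher, beside 1.38%. Its 2 probes gave 0.065 and 0.14 on array 1 but −2.35 and −0.56 on array 2. They had the same sign on each array and differed in size on array 2 by 1.79, a gap that 2.35% of the 5279 genes with 2 probes reached.

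Idi1 encodes the isomerase that turns isopentenyl diphosphate into dimethylallyl diphosphate. It had 0.32 and −0.88, a mean of −0.28 ± 0.85 (SD, n = 2) with an interval of −2.34 to 1.78. The low value on array 2 came from 1 of its 2 probes. That probe gave 0.52 and −1.73, which on array 2 is 3.31-fold lower in the transformant, and the other gave 0.12 and −0.038. The gap of 1.69 on array 2 was reached by 3.11% of genes with 2 probes, against a median gap of 0.33. Idi2 is a related gene nearby, and probe sequences were not analysed here, so whether either probe also reads it is uncertain.

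Sqle encodes squalene epoxidase, an oxygen-using and rate-limiting step after squalene. Its single probe gave 0.32 on array 1 and −0.89 on array 2, a mean of −0.29 ± 0.86 (SD, n = 2) with an interval of −2.37 to 1.80. With 1 probe there is no second reading of Sqle. These values are close to those of Idi1 on both arrays, as averaged over its probes. The distance between the arrays was 1.56 for Hmgcs1, 1.22 for Sqle and 1.20 for Idi1, and 4.30%, 8.55% and 8.85% of named genes had distances at least as large.

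Fdps encodes farnesyl diphosphate synthase, which builds the isoprenoid from which sterols, ubiquinone and prenyl anchors branch. It had −0.17 and 0.073, a mean of −0.05 ± 0.17 (SD, n = 2). Its probes disagreed on array 1, with −0.54 for 1 and 0.20 for the other, and had 0.13 and 0.019 on array 2. Fdft1 encodes squalene synthase, the first step committed to sterols. It had −0.34 and 0.066, a mean of −0.14 ± 0.28 (SD, n = 2), with probe values of −0.46 and −0.21 on array 1 and −0.074 and 0.21 on array 2. The 95% limma intervals were −0.58 to 0.48 for Fdps and −0.89 to 0.62 for Fdft1. As gene means, both were thus below 0 on array 1 alone, by 1.13-fold and 1.26-fold.

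Of the regulators, Srebf2 encodes SREBP-2, the form that acts mainly on cholesterol genes. Its 4 probes gave −0.39, −0.16, −0.16 and −0.50 on array 1, and −0.38, 0.048, 0.10 and 0.25 on array 2 in the same order. All 4 were below 0 on array 1, and 1 of the 4 was below 0 on array 2 as well. The mean over probes was −0.30 and 0.0069, or −0.15 ± 0.22 over arrays (SD, n = 2), with an interval of −0.77 to 0.47. Srebf1 encodes SREBP-1, whose 1c form acts mainly on fatty acid genes. Its 1 probe had −0.16 and 0.33, a mean of 0.086 ± 0.34 (SD, n = 2), the only mean of the 8 above 0.

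Insig1 encodes the membrane protein that retains Scap and SREBP, and is itself a target of SREBP. It had −0.14 and 0.058, a mean of −0.04 ± 0.14 (SD, n = 2) with an interval of −0.51 to 0.43, the narrowest of the 8. Its probes gave −0.020 and −0.25 on array 1 and −0.054 and 0.17 on array 2. By mean over arrays the order was Hmgcs1, Sqle, Idi1, Srebf2, Fdft1, Fdps, Insig1 and Srebf1 from lowest to highest. No neighbours in this order differed by more than the SD of either.

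**Figure D2:**
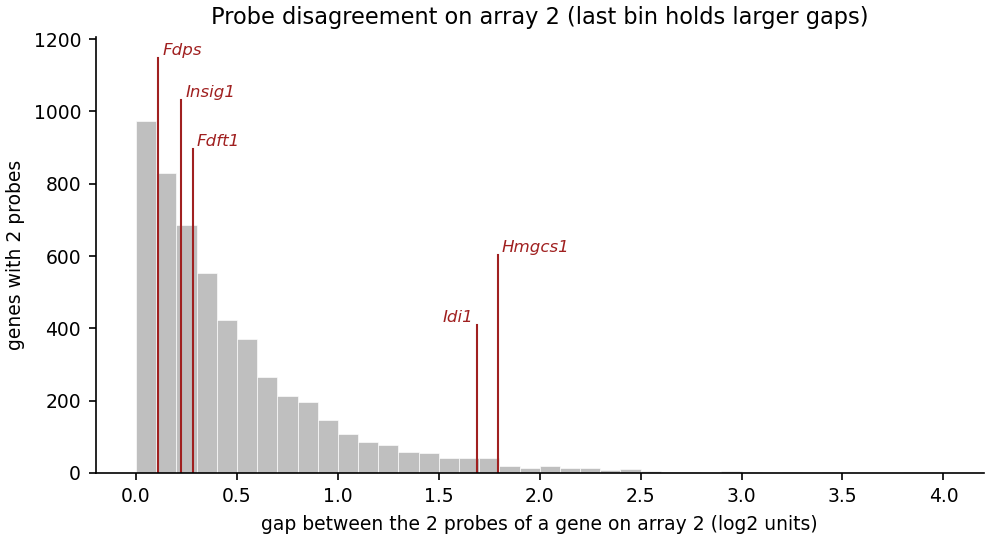
Number of genes (vertical axis) by the gap between the 2 probes of a gene on array 2 in log2 units (horizontal axis), for the 5279 named genes with exactly 2 probes. Red lines mark Hmgcs1 at 1.79 and Idi1 at 1.69, far in the tail, and Fdps, Insig1 and Fdft1 at 0.28 or less. The heights of the lines carry no value.

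The opposite signs were read against the rest of the array. For 55.4% of named genes the arrays had opposite signs, 28.2% with the sign pattern of Hmgcs1 and 27.2% with the reverse. Below 0 on both arrays were 0 of the 8 genes beside 19.4% of named genes, and above 0 on both were 0 beside 22.1%. Single probes were less uniform, with 12 of 16 opposite, 3 below 0 on both and 1 above 0 on both, beside 55.5% of named probes with opposite signs. As deposited, without turning array 2, opposite signs mean that 1 dye gave the brighter signal each time. This was Cy5 for Hmgcs1, Sqle and Idi1, and Cy3 for the other 5. The dye's part in these values was not tested, and cannot be told apart from that of the clones. The median of the 8 was −0.15 on array 1, 0.032 on array 2 and −0.14 for the mean over arrays, beside a median of 0 for that mean over named genes. The median for the mean over arrays shares its sign with array 1 and not with array 2. It draws on both arrays, since Hmgcs1, Sqle and Idi1 have means below 0 through array 2 alone.

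**Figure D3:**
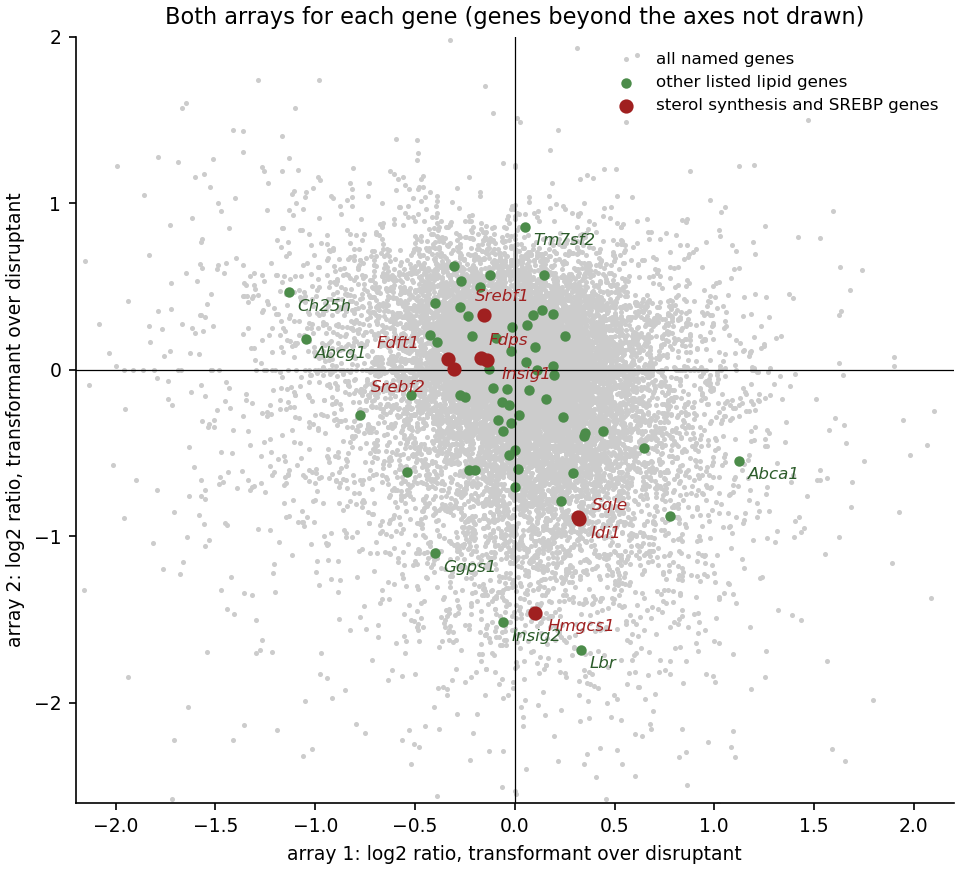
Log2 ratio of transformant over disruptant on array 1 (horizontal axis) and array 2 (vertical axis), with 1 point per gene. Red points are the 8 genes, green points the other measured genes of the lipid lists, and grey points all named genes within the axes. All red points lie to the upper left or lower right of the crossing axes, with Hmgcs1, Sqle and Idi1 at the lower right.

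The wider pathway was followed in 8 lists of genes, 80 in all with the enzymes and regulators above, of which 69 were measured. Of the 61 measured genes outside the 8, limma called 0 in either direction, and 1 had an unadjusted p under 0.05, a smaller share than the 3.15% of all entries. It was Fnta, the shared alpha subunit gene of protein farnesyl and geranylgeranyl transferase, with −0.54 and −0.61 (limma adjusted p = 1). It was chosen after its values were seen. Below 0 on both arrays were 19 of the 61, above 0 on both 10 and opposite 32, with medians of −0.021 and −0.12. Over all named genes these shares were 19.4%, 22.1% and 55.4%, which are also what the sign counts of the single lists, of 6 to 12 genes each, stand beside.

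In the mevalonate arm 6 of 8 genes were analysed here. Medians were −0.012 and 0.10, with 5 opposite and 1 above 0 on both arrays. Mevalonate kinase, Mvk, had −0.31 and 0.63, the reverse of the pattern of Hmgcs1 and Idi1. Pmvk, the kinase that follows it, chosen after its values were seen, had 0.10 and 0.13. Mvd, the decarboxylase after Pmvk, had −0.12 and 0.57, a mean of 0.22 ± 0.49 (SD, n = 2). Enzymes of the same short route therefore lay on both sides of 0 on array 2.

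In the arm from squalene to cholesterol 12 of 13 genes were measured, with medians of 0.010 and −0.16. Of these, 5 were below 0 on both arrays, 2 above and 5 opposite. Lbr, a nuclear envelope protein that is also a sterol reductase, had the lowest mean and the lowest value on array 2 but the highest on array 1, with 0.33 and −1.68. Tm7sf2, which encodes another reductase of the same step, had the highest mean and the highest value on array 2, with 0.052 and 0.86. The 2 genes of that step, each read by 1 probe, thus stood at the 2 ends of the list on array 2.

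Of the SREBP control genes all 7 were measured, with medians of −0.16 and 0.0069, 3 below 0 on both arrays, 1 above and 3 opposite. Insig2, the relative of Insig1, had −0.059 and −1.51, a mean of −0.79 ± 1.03 (SD, n = 2). Both of its probes were low on array 2, with −2.06 and −0.97. The escort gene Scap had 0.19 and 0.025. The site-2 protease gene Mbtps2 had −0.52 and −0.15.

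Among genes of sterol uptake and transport 9 of 12 were analysed here. The medians were −0.014 and 0.0051, with 1 below 0 on both arrays, 1 above and 7 opposite. Stard4, a cytosolic sterol carrier, had 0.29 and −0.62, and the lysosomal acid lipase gene Lipa 0.44 and −0.37. Mylip, a ubiquitin ligase gene, had −0.42 and 0.21, and the lipoprotein receptor gene Lrp8 0.093 and 0.33. Efflux, storage and oxysterol genes, with 8 of 10 measured, had medians of −0.0038 and −0.072 and the widest values on array 1. There the exporter gene Abca1 had 1.13, against −1.05 for its relative Abcg1 and −1.13 for the oxysterol enzyme gene Ch25h, each on 1 probe. On array 2 each of these 3 had the opposite sign, with −0.54, 0.18 and 0.47, and Cyp7b1, another oxysterol enzyme gene, had 0.23 and −0.79.

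Fatty acid synthesis genes were all measured (12 of 12), with medians of −0.025 and −0.12, 3 below 0 on both arrays, 0 above and 9 opposite. The desaturase gene Scd2 had 0.78 and −0.88, and Scd1 had −0.00023 and −0.70, each on 1 probe. Acaca, the carboxylase at the head of that pathway, had −0.40 and 0.40, and the malic enzyme gene Me1 0.65 and −0.47. Of the 5 probes of Acaca, 1 had −1.35 and 1.64. The others ran from −0.36 to −0.057 on array 1 and from −0.11 to 0.33 on array 2. In other isoprenoid branches 9 of 10 were measured, with medians of −0.018 and −0.0019. Ggps1, which makes geranylgeranyl diphosphate, had the lowest mean of the list and the lowest value on array 2, with −0.40 and −1.10, from probes at −0.999 and −1.41 for 1 and 0.20 and −0.79 for the other. Fntb, the beta subunit partner of Fnta in farnesyl transferase, was the lowest on array 1, with −0.77 and −0.27. Pggt1b had 0.35 and −0.38, Icmt, a methyltransferase of prenylated proteins, 0.19 and 0.34, and Rce1, a protease of the same proteins, −0.17 and 0.50. Of the 3 probes of Pggt1b, 1 had −1.52 on array 2 and the others 0.23 and 0.15.

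Genes of protein degradation at the endoplasmic reticulum had 6 of 8 measured and medians of 0.0088 and −0.38. The ligase gene Rnf139 had −0.23 and −0.60, Syvn1 had 0.14 and 0.36, and Aup1 had −0.27 and 0.53. The 3 probes of Rnf139 disagreed in sign on array 1, where they ran from −1.31 to 0.51, and on array 2, where they ran from −1.45 to 0.52.

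**Figure D4:**
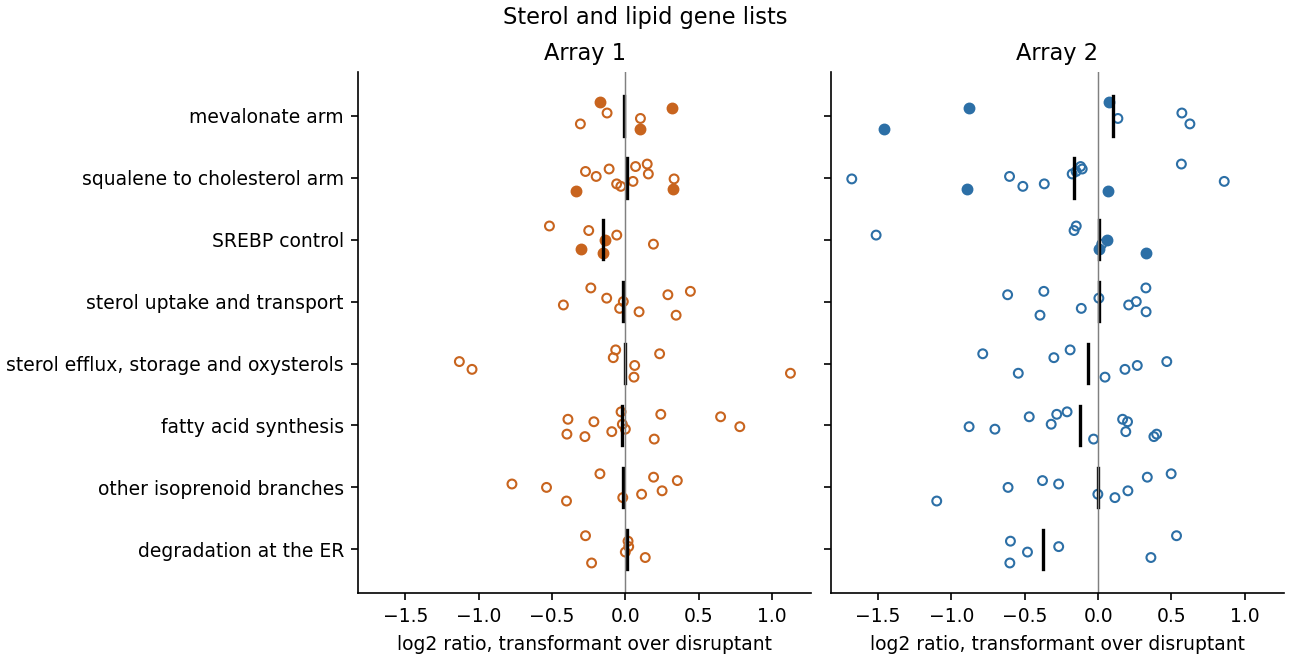
Log2 ratio of transformant over disruptant (horizontal axes) for the measured genes of 8 lists (rows), with array 1 at left and array 2 at right. Filled circles are the 8 sterol and SREBP genes, open circles other genes, and black bars list medians. Medians run from −0.16 to 0.010 on array 1 and from −0.38 to 0.10 on array 2, with single genes well outside them.

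Probes at least 2-fold lower on array 2 were found for 2 of the 16 probes of the 8 genes and for 12 of 126 over the whole pathway (9.52%), beside 8.24% of named probes. They belonged to 12 genes, 1 probe each. Of the 12, 10 were above 0 on array 1, beside 68.3% of such probes over all named genes. Besides Hmgcs1 and Idi1 they include Lss, the lanosterol synthase gene, whose probe had 0.80 and −1.91 while its other probes had −0.45 and 0.20, and −0.44 and 0.17. Lss was chosen after its values were seen. By nearness in the plane of the 2 arrays, the named genes most like Hmgcs1, the gene of the 8 furthest from 0, were Npm1 (0.085 and −1.46), Rab5a (0.089 and −1.43) and Actr6 (0.12 and −1.48), at distances of 0.016, 0.030 and 0.033 over 2 arrays.

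Markers of stem cells and of other cell types are set beside these genes, and their part in the values was not tested. Of 5 stem cell markers Zfp42 (−1.54 and −1.69), Nanog (−0.95 and −1.04) and Sox2 (−0.58 and −0.51) were below 0 on both arrays, and Pou5f1 (0.10 and 0.50) and Utf1 (0.10 and 0.46) above. Of 5 trophoblast markers 3 were below 0 on both arrays and 1 above, of 5 fibroblast markers 2 and 1, and of 5 primitive endoderm markers 0 and 0. The trophoblast markers ran from −0.88 to 0.76 on array 1 and from −0.98 to 0.38 on array 2, the fibroblast markers from −1.06 to 1.37 and from −0.91 to 0.45, and the endoderm markers from −0.71 to −0.042 and from 0.053 to 0.48. Over these markers limma called 0, with unadjusted p under 0.05 for 3 stem cell, 2 trophoblast, 1 fibroblast and 0 endoderm markers, beside 3.15% of all entries.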

How the data were processed

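Gene expression was measured on 2 two-colour Agilent arrays, and the authors deposited 1 value per spot and array for 43790 spots. Per the submitters' processing notes Agilent Feature Extraction was used. Neither the version nor the background correction nor the dye handling was given in the sources used here. Deposited values, −2.69 to 1.89 with a median of 0 on each array, were read as log10 ratios of Cy5 over Cy3, which is inferred. They were multiplied by 3.32, and array 2 was turned to read transformant over disruptant. Gene names came from GEO's platform annotation, which gave 32042 spots 1 symbol and 47 several, and did not list 11701. Of the unlisted, 725 below −1 on both arrays in log10 units were left out as control spots. Probes of a gene were averaged, which left 30110 entries, 19087 of them named. An exact 0, found for 6.47% and 6.99% of spots, occurred at 0 probes of the 8 genes. No depth exists for arrays, and their number limits the precision.

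Whether the array mean departs from 0 was tested two-sided in R 4.3.3 by limma 3.58.1 (lmFit, then eBayes), at 0.05 after Benjamini-Hochberg adjustment across all entries (1 residual and 0.861 prior degrees of freedom). The test was also run on simulated data with changes of known size, and the outcome is not reported here. Gene lists are described by counts and medians. Promoters came from RefSeq tables of GRCm38.p6. The genes named are the 8, the extremes of each list, Tcl1 and stem cell markers, with exceptions marked. The genes and lists were chosen with earlier results of these data known. Older symbols were matched through RefSeq synonyms. Some genes of the lists are not reported here.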

Additional observations from a re-analysis of the deposited data

How the results depend on the processing

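Signs and calls of the 8 genes were recomputed with other centring, exact zeros left out, the median over probes, control spots kept, named probes alone, a log2 reading and a robust variance model. Under these 7 alternatives limma called 0 entries and 0 of the 8 genes, and the 8 kept opposite signs on the arrays. Those signs could change only with other centring or the median over probes. The other settings leave the values of the 8 as they are or only rescale them. Adjusted p under 0.10 also gave 0, and unadjusted p under 0.05 gave 947 entries and 0 of the 8. With array 2 not turned, which goes against the dye labels and makes opposite signs alike by construction, 5 of the 8 were below 0 on both arrays and 3 above, limma called 0, and the smallest adjusted p of the 8 was 0.551. The means of Hmgcs1, Sqle and Idi1 were then 0.78, 0.61 and 0.60. With each probe by itself 3 probes were below 0 on both arrays and 1 above, and 1 probe of Srebf2 had a mean of −0.38 with an unadjusted limma p of 0.0455 (adjusted p = 1). The median of the 8 was −0.15 without array 2 and 0.032 without array 1, and 1 array alone allows no test. Each ratio already pairs a transformant with a disruptant on 1 array, so no further pairing was made. Without channel intensities, signal over background sets an unknown limit on every value.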
